A study of Rattus norvegicus with 6 samples.

Results

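The genes that turn tryptophan into nicotinamide adenine dinucleotide (NAD), or that recycle and discard its nicotinamide part, were examined in the liver of rat pups at weaning. The 10 genes, Tdo2, Afmid, Kmo, Kynu, Haao, Acmsd, Qprt, Aadat, Nampt and Nnmt, are 10 of the 14217 genes the array annotation names. They were listed by their place in the pathway, with earlier results of these data known. Their 14 probe sets were found by gene symbol. Where a gene had several, its probe set was selected on the measured signal, as the brightest by the mean of all 6 arrays, so that mean is a choice and not a finding. All 10 genes lay above the limit set for dim signals, as did all 14 probe sets. Samples were livers of Sprague-Dawley rats aged 3 weeks, 1 array each. In the control group (n = 3) the mothers ate standard chow, and in the high fat group (n = 3) they ate a high fat diet; the pups share strain, age and tissue, and the labels give no sex, litter or diet composition. Since litters are not named and pups may share a dam, p-values speak only of the spread among these animals.

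Liver is where most dietary tryptophan is broken down. Tryptophan dioxygenase opens its ring, and the kynurenine that results can be hydroxylated and cleaved toward NAD or transaminated to kynurenic acid. Late in the pathway an unstable semialdehyde either closes by itself to quinolinate, which Qprt carries to NAD, or is decarboxylated by ACMSD and leaves toward picolinate and glutarate. NAD that has been used releases nicotinamide, which Nampt returns to NAD and Nnmt methylates for excretion.

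Arrays were scaled alike by the submitters, with a 2% trimmed mean of 500.2 on each. Hepatocyte markers were high in every array: 9 of 10 listed had a probe set, all 9 above the dim limit, and their summed signal was 246727 to 248955 in controls and 231859 to 247214 in high fat pups. Sinusoidal endothelial markers summed to 19468 to 22959 in controls and 11078 to 14474 in high fat pups over the 7 of 8 listed that had a probe set. Of these 7, 6 were lower at an unadjusted p under 0.05 in limma, where 7.49% of all genes were. None had an adjusted p under 0.05, and Pecam1 was at -0.09. High fat replicate 1 stood apart by exocrine pancreas transcripts, whose 7 markers summed to 42614 there and to 117 to 216 in the other arrays. Control replicate 3 had the largest 3' minus 5' signal difference of the actin and GAPDH control probe sets, a measure of RNA integrity, at 3.06 against 1.92 to 2.46 in the others.

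Acmsd, which draws the semialdehyde away from NAD synthesis, stood furthest from the controls among the 10 genes. Its log2 signal was 8.65, 8.74 and 8.49 in control replicates 1 to 3 and 6.84, 6.97 and 6.26 in high fat replicates 1 to 3. The groups did not overlap, and the gap between them was wider than the range within either. The mean was 8.62 ± 0.13 (SD, n = 3) in controls and 6.69 ± 0.37 (SD, n = 3) in high fat pups, 3.82-fold lower. The log2 difference of -1.94 (SE 0.21, 95% interval -2.43 to -1.44) had the fifth smallest p of 10372 genes tested, but did not pass after Benjamini-Hochberg adjustment over all of them (limma, adjusted p = 0.0768, from an unadjusted 3.70e-05). With the lowest 60% of probe sets left out the adjusted p was 0.0277, and with a variance that follows the signal level and robust moderation, changed together, it was 0.0373, so the call depended on these settings. With 1 array left out the difference ranged from -2.08 to -1.72 and the adjusted p from 0.0823 to 0.200. It was -2.01 without high fat replicate 1. In whole liver, fewer cells of a type and less RNA per cell cannot be told apart. Kidney is another site of this enzyme. Of 5 kidney tubule markers, Umod, Slc34a1, Aqp2 and Slc12a1 were below the dim limit, and the summed signal was 161 to 252 in controls and 122 to 187 in high fat pups. Lrp2, the marker above the limit, was at 6.70 and 5.90 in the group means. The part of these markers and of the endothelial ones in the Acmsd difference was not tested.

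**Figure D1:**
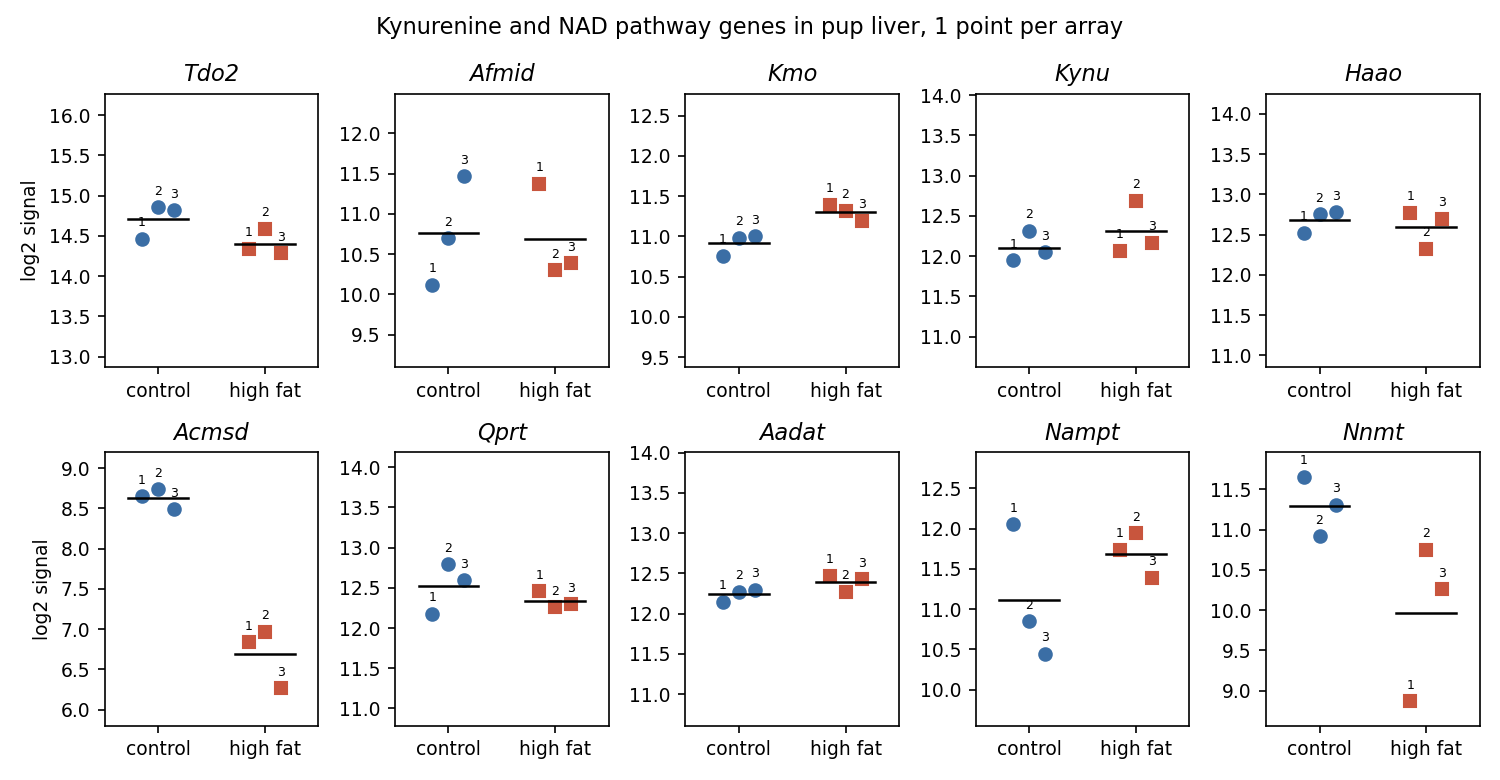
Log2 signal of each of the 10 genes on each array, controls as circles and high fat pups as squares, with the replicate number above each point and the group mean as a line. Every panel spans the same number of log2 units. Acmsd shows the widest gap between groups, from 8.49 in the lowest control to 6.97 in the highest high fat array, Kmo a narrow one in the other direction, and Afmid a spread that does not follow the diet.

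Of the 10 genes, 0 passed an adjusted p under 0.05 in limma, where 0.0386% of all genes tested did. At an unadjusted p under 0.05 there were 3, Kmo higher and Acmsd and Nnmt lower, against 14.0% of all genes tested. The same 3 had arrays that did not overlap between the diets, against 20.8% of all genes. With 10 genes a count of 3 is not far from these shares, and nothing is read from it. The median difference of the 10 genes was -0.08, beside -0.02 over all genes tested, with 4 genes above 0 (46.9% of all genes) and 6 below (53.1%). The members' median turned to 0.07 when control replicate 3 was left out, and leaving out high fat replicate 2 gave 0.03. It was -0.26 and -0.05 without control replicates 1 and 2, and -0.21 and -0.03 without high fat replicates 1 and 3.

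Tdo2, the tryptophan dioxygenase that starts the pathway in hepatocytes, had a log2 signal of 14.47, 14.86 and 14.82 in controls and 14.34, 14.59 and 14.28 in high fat pups. The ranges overlapped in 1 place, where high fat replicate 2 lay above control replicate 1. The difference was -0.31 (SE 0.16, 95% interval -0.70 to 0.08; limma, adjusted p = 0.457, from an unadjusted 0.102). As deposited, before quantile normalization, the arrays did not overlap, at 14.53 to 14.94 against 14.30 to 14.43. The difference was then -0.42 with an unadjusted p of 0.0287 (limma, adjusted p = 0.306). The unadjusted p was also under 0.05 with median centring (0.0226) and without control replicate 1 (0.0366). It was 0.0382 with a variance that follows the signal level and robust moderation. In limma it was above 0.05 with array weights (0.0676), the lowest 60% of probe sets left out (0.0869) and the replicate block (0.118). The same held without the dim filter (0.128) and with the 3' minus 5' covariate (0.202). With any array but control replicate 1 left out it was also above 0.05, up to 0.249.

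Afmid, the formamidase that yields kynurenine, varied between pups of the same diet. Its brightest probe set was at 10.12, 10.70 and 11.47 in controls and at 11.37, 10.30 and 10.39 in high fat pups. Control replicate 3 and high fat replicate 1 were high and the other arrays low, so the groups overlapped. All 3 probe sets had this order of high and low arrays. The difference was -0.08 (SE 0.41, 95% interval -1.05 to 0.90; limma, adjusted p = 0.952). Leaving out control replicate 3 turned it to 0.28, leaving out high fat replicate 2 to 0.12, and leaving out high fat replicate 3 to 0.07. With the 3' minus 5' difference as a covariate it was 0.43 (limma, adjusted p = 0.587).

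Kmo, the hydroxylase that commits kynurenine to the NAD branch, was at 10.76, 10.98 and 11.00 in controls and at 11.39, 11.32 and 11.19 in high fat pups. All high fat arrays lay above all controls by a small step, 1.31-fold between the means. The difference was 0.39 (SE 0.13, 95% interval 0.07 to 0.71), with an adjusted p of 0.293 in limma, from an unadjusted 0.0239. The unadjusted p rose above 0.05 when control replicate 1 (0.0734), high fat replicate 1 (0.0755) or high fat replicate 2 (0.0583) was left out. Kmo is also made by macrophages. Of 12 macrophage and Kupffer cell markers, 9 had a probe set and all 9 were above the dim limit. Their summed signal overlapped between the diets, at 19346 to 22551 in controls and 15566 to 23367 in high fat pups. Singly, 3 of the 9 were above 0 and 6 below, where 53.1% of all genes were below. At an unadjusted p under 0.05 in limma 2 were lower, Cd163 at -0.52 and Mrc1 at -0.34, and 0 higher. Of all genes, 7.49% were lower at such a p. The part of these markers in the Kmo difference was not tested.

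Of the 3 genes with the smallest p, a promoter window was at hand for Kmo, shown here as the sequence next to the gene that lay higher. It is the 250 bases before the RefSeq start of Kmo on the plus strand of the GRCr8 assembly, chr13:90089271-90089520, 5′ to 3′, from the reference strain and not from these pups.

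Kmo: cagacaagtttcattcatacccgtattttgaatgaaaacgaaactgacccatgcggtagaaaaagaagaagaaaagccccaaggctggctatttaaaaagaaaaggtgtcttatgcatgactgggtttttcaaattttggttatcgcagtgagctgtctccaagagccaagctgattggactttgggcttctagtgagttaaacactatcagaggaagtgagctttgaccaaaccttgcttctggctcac

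This stretch holds none of the motifs searched on both strands, so no letter is in capitals. These were AGGTCA (nuclear receptor motif, in 14.1% of all 33469 RefSeq windows of this length), AGAACA (glucocorticoid receptor motif, 17.5%) and GCGTG (core of the aryl hydrocarbon receptor site, 25.9%). The others were the E-box CACGTG (5.59%), TATAAA (12.9%) and the C/EBP site TTNCNNAA (37.2%). Windows were held for 7 of the 10 genes. Among them Aadat had 1 AGGTCA and 2 GCGTG, Haao 1 AGGTCA and 1 AGAACA, Tdo2 1 TATAAA, and Kynu and Qprt 1 TTNCNNAA each, while Afmid had none.

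Kynu, Haao and Qprt, which act after Kmo on the way to NAD, differed between the diets by at most 0.20 on the log2 scale. Kynu, the kynureninase that cleaves the side chain, was at 11.95, 12.31 and 12.05 in controls and at 12.07, 12.69 and 12.17 in high fat pups. The ranges overlapped, and replicate 2 was the highest in each diet. The difference was 0.20 (SE 0.20, 95% interval -0.28 to 0.69; limma, adjusted p = 0.689) and 0.02 without high fat replicate 2. Haao, the dioxygenase whose product is the semialdehyde, was at 12.52, 12.75 and 12.78 in controls and 12.77, 12.33 and 12.70 in high fat pups. High fat replicate 2 was the lowest array, and the other values lay together. Its difference was -0.09 (SE 0.17, 95% interval -0.48 to 0.31; limma, adjusted p = 0.856), and it was 0.05 without high fat replicate 2. Qprt, which joins quinolinate to ribose phosphate, was at 12.18, 12.79 and 12.60 in controls and 12.45, 12.26 and 12.30 in high fat pups. Control replicate 1 lay below every high fat array and the other controls above them. The difference was -0.19 (SE 0.18, 95% interval -0.62 to 0.25; limma, adjusted p = 0.689), and it was -0.36 without control replicate 1 and -0.05 without control replicate 2. A dimmer Qprt probe set gave -0.47, the same direction.

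Aadat, an aminotransferase that turns kynurenine to kynurenic acid, varied least in controls of the 10 genes. It was at 12.15, 12.27 and 12.29 in controls and 12.47, 12.27 and 12.43 in high fat pups, with high fat replicate 2 inside the control range. The difference was 0.15 (SE 0.13, 95% interval -0.15 to 0.45; limma, adjusted p = 0.640).

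Nampt, the rate-limiting enzyme of nicotinamide salvage, was at 12.06, 10.85 and 10.45 in controls and at 11.74, 11.95 and 11.39 in high fat pups. High fat arrays lay together and above control replicates 2 and 3, while control replicate 1 was the highest of all arrays. The means were 11.12 ± 0.84 (SD, n = 3) and 11.69 ± 0.28 (SD, n = 3), and the difference was 0.57 (SE 0.40, 95% interval -0.39 to 1.53; limma, adjusted p = 0.581). It was 1.04 without control replicate 1 (limma, adjusted p = 0.290, from an unadjusted 0.00396) and 0.23 without control replicate 3. With the 3' minus 5' covariate it was 0.13. The dimmer of its 2 probe sets was at 1.64 in control replicate 3 and between 6.29 and 7.27 in the other arrays. Neutrophils are rich in this transcript. Of 8 neutrophil markers 5 had a probe set, with Camp below the dim limit. Their summed signal was 1607, 931 and 613 in control replicates 1 to 3. It was 858, 551 and 1361 in high fat replicates 1 to 3. The part of these markers in the Nampt values was not tested.

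Nnmt, the methyltransferase that removes nicotinamide with a methyl group of S-adenosylmethionine, had its lowest signals in high fat pups. It was at 11.66, 10.92 and 11.31 in controls and at 8.87, 10.75 and 10.26 in high fat pups. The groups did not overlap, but the gap from high fat replicate 2 to the lowest control was smaller than the SD of the controls, and high fat replicate 1 lay far below. The means were 11.30 ± 0.37 (SD, n = 3) and 9.96 ± 0.98 (SD, n = 3), 2.52-fold apart. The difference was -1.34 (SE 0.47, 95% interval -2.46 to -0.21; limma, adjusted p = 0.296, from an unadjusted 0.0262). Without high fat replicate 1, the array with pancreas transcripts, it was -0.79 (limma, adjusted p = 0.338). The unadjusted p was above 0.05 without control replicate 1 (0.0802) and without control replicate 3 (0.0631). Adipocytes are a known source of Nnmt, and Adipoq, Plin1 and Lep were below the dim limit. The 6 adipocyte markers summed to 995 to 1490 in controls and 1065 to 1334 in high fat pups. In high fat replicate 1 the endothelial markers were also lowest, at 11078, and their part in the Nnmt value was not tested.

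**Figure D2:**
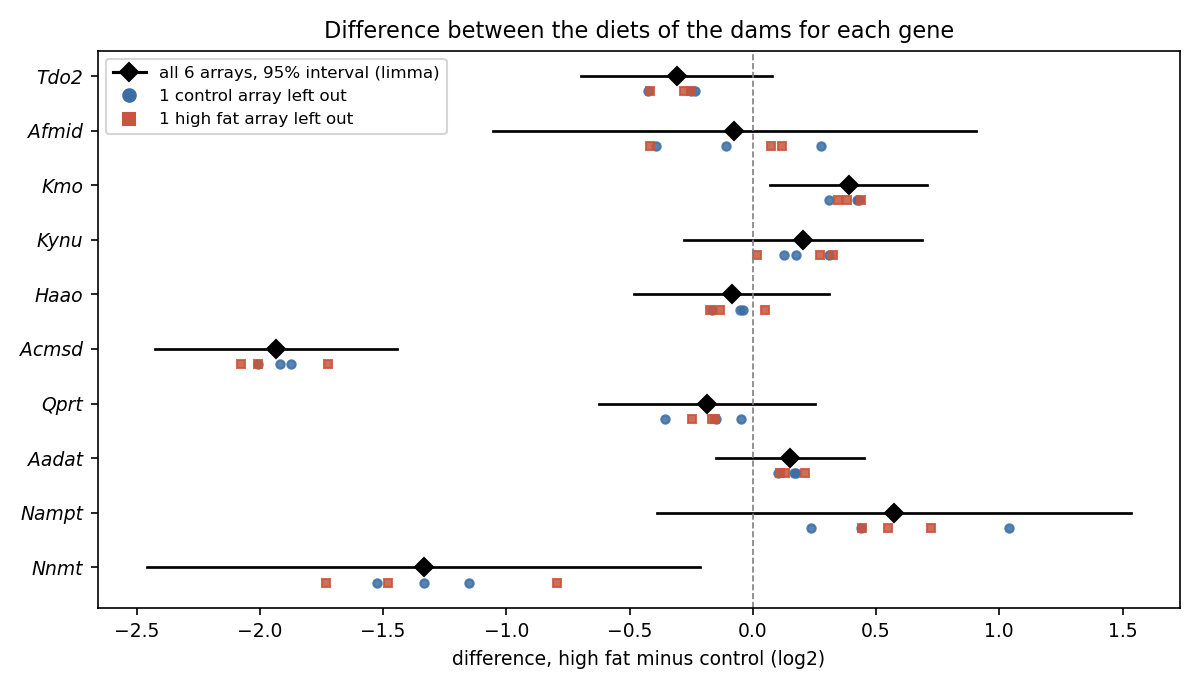
Difference between the diets for each gene, in log2 units, the high fat mean less the control mean, as a diamond with limma's 95% interval, and below it the value with each array left out in turn. Acmsd stays between -2.08 and -1.72 in these, Nnmt spreads from -1.73 to -0.79, Nampt from 0.23 to 1.04, and Afmid falls on both sides of 0.

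Where the pathway divides, the signals of both arms were compared within each array. Only the shift between arrays has a meaning here, since the signals of different probe sets have no common scale. Each shift is the difference of 1 gene less that of the other, both given above, so it is no separate evidence. Acmsd minus Qprt was -3.53, -4.06 and -4.11 in controls and -5.62, -5.29 and -6.03 in high fat pups. The groups did not overlap, with means of -3.90 ± 0.32 (SD, n = 3) and -5.65 ± 0.37 (SD, n = 3). Acmsd alone differed by -1.94 and Qprt by -0.19, so both arms were lower and Acmsd carried the shift. The shift of -1.75 had an exact permutation p of 0.1 (2-sided, adjusted p = 0.1 over 3 branch points), the smallest that 3 against 3 arrays can give. It ranged from -1.93 to -1.56 with 1 array left out.

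Nnmt minus Nampt was -0.40, 0.07 and 0.86 in controls and -2.87, -1.19 and -1.13 in high fat pups, again with no overlap. The shift was -1.91 (exact permutation p = 0.1, adjusted p = 0.1), and without high fat replicate 1 it was -1.34. Kmo minus Aadat was -1.39, -1.29 and -1.29 in controls and -1.07, -0.95 and -1.23 in high fat pups. Its shift of 0.24 was the smallest of the 3 (exact permutation p = 0.1, adjusted p = 0.1), and high fat replicate 3 came close to the controls.

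**Figure D3:**
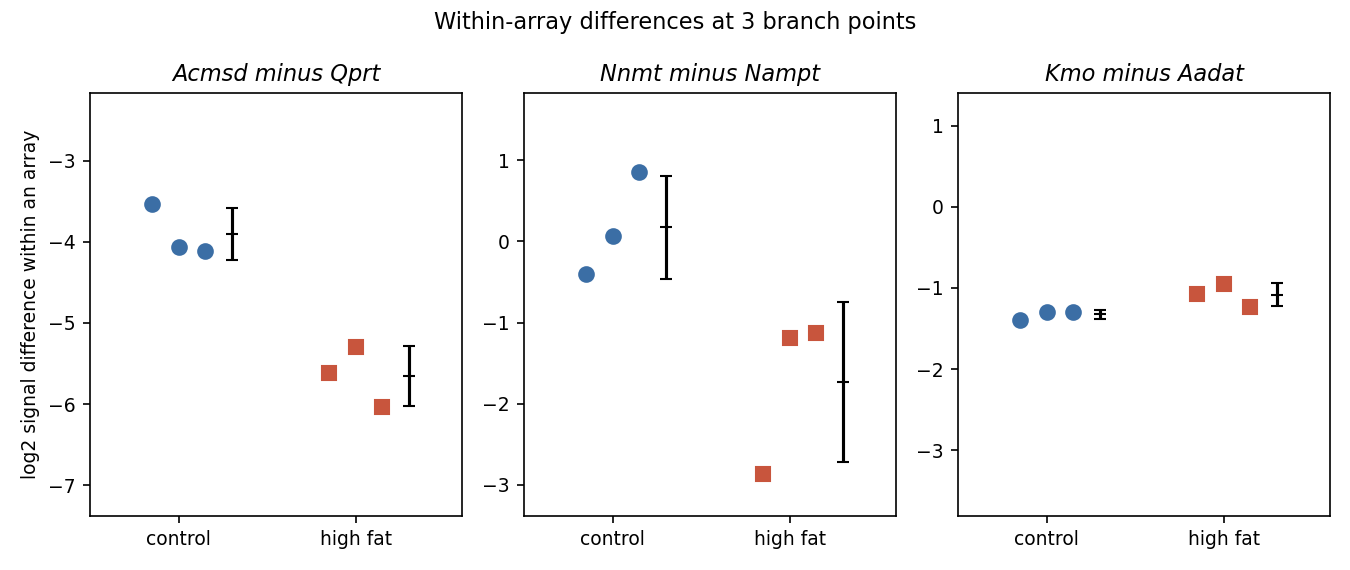
Difference of log2 signals within an array at the 3 branch points, 1 point per array, controls as circles and high fat pups as squares, with mean and SD beside each group. Panels span the same number of log2 units, and the shift between the diets is -1.75, -1.91 and 0.24 from left to right.

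The genes around this core were taken as 8 lists of 85 genes, of which 68 had a probe set and 58 lay above the dim limit. None passed the adjusted threshold in limma. At an unadjusted p under 0.05 there were 11, with 4 higher and 7 lower, against 6.55% and 7.49% of all genes tested in those directions. Of these 11, the 6 genes Cyp1a1, Gnmt, Kyat1, Naprt, Ppara and Slc3a2 kept such a p with any 1 array left out. List medians rest on few genes, and in 7 of the 8 lists leaving out 1 array turned the median or moved it by over 1.5 times. Among other tryptophan and kynurenine enzymes 1 of 9 tested had such a p, against 14.0% of all genes. This was Kyat1, another kynurenine aminotransferase, at 11.21, 10.73 and 10.86 in controls and 10.05, 9.90 and 10.31 in high fat pups. Its difference was -0.85 (SE 0.18; limma, adjusted p = 0.184), whereas Aadat, which runs the same reaction, had 0.15. The list's median was -0.05. It moved by over 1.5 times with each array left out, between -0.11 and -0.01, was -0.17 with the mean of a gene's probe sets and turned to 0.01 with the 3' minus 5' covariate. The difference between Kyat1 and Aadat was not tested.

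Among enzymes carrying the ACMSD product on toward glutaryl-CoA and its oxidation, all 4 tested were below 0, as were 53.1% of all genes. The other gene of the 5 listed, Aldh8a1, had no probe set. With so few genes nothing is read from this count. The median was -0.09, and none had an unadjusted p under 0.05. The median was -0.16 without control replicate 1, -0.05 without control replicate 3, and -0.03 and -0.14 without high fat replicates 2 and 3. Dlst was at -0.26 (SE 0.15) and Ogdh at -0.10 (SE 0.14). Dlst was at -0.15 without high fat replicate 2 and Ogdh at -0.05 without control replicate 3.

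In NAD synthesis and phosphorylation, 2 of 9 tested genes had an unadjusted p under 0.05, against 14.0% of all genes. The median was -0.19, or -0.07 without the dim filter. Naprt, which uses nicotinic acid for NAD, was at 11.69, 11.52 and 11.48 in controls and 11.28, 10.75 and 10.73 in high fat pups. The difference of -0.65 (SE 0.19; limma, adjusted p = 0.243) kept an unadjusted p of at most 0.0392 with any 1 array left out. Nadk2, the mitochondrial NAD kinase, was at 0.42 (SE 0.16; limma, adjusted p = 0.337). Its unadjusted p stayed under 0.05 in 2 of 6 such fits and reached 0.125, being lost without control replicate 2 or 3 or high fat replicate 1 or 3. Nmnat1, the nuclear enzyme that completes NAD, was at -0.33 (SE 0.16; limma, adjusted p = 0.403) and Nadsyn1, the NAD synthetase, at -0.35 (SE 0.22). Nmnat1 was at -0.22 without control replicate 3, and Nadsyn1 at -0.20 without control replicate 2 and -0.56 without control replicate 1.

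Of the genes listed as NAD users, 1 of 13 tested had an unadjusted p under 0.05, against 14.0% of all genes. Aox1 is in this list and also in that of methyl donors and cofactors. The median of the NAD users was 0.00. With 1 array left out that median lay between -0.09 and 0.09, below 0 without control replicate 3, high fat replicate 1 or high fat replicate 3. Sirt7, a nuclear deacylase, was at -0.42 (SE 0.17; limma, adjusted p = 0.345), but at -0.26 without control replicate 3, and its unadjusted p stayed under 0.05 only without control replicate 2. Among the genes listed for transport of tryptophan, kynurenine and nicotinamide, 3 of 5 tested had such a p, against 14.0% of all genes. With so few genes nothing is read from this count. The list median was 0.13. The sign of this median rested on control replicate 2, without which it was -0.08. It was 0.32 and 0.33 without control replicates 1 and 3, and 0.55 and 0.02 without high fat replicates 1 and 3. Slc3a2, the heavy chain shared by several amino acid transporters, was at 1.00 (SE 0.20; limma, adjusted p = 0.184). Slc17a1, an organic anion carrier, was at 0.47 (SE 0.15; limma, adjusted p = 0.272), and Slc16a10, a carrier of aromatic amino acids, at -0.94 (SE 0.31; limma, adjusted p = 0.276). The unadjusted p of Slc17a1 rose above 0.05 without high fat replicate 2, and that of Slc16a10 without control replicate 3 or high fat replicate 2.

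Regulators of the pathway had a median of 0.22, with 1 of 9 tested at an unadjusted p under 0.05, against 14.0% of all genes. This median was 0.44 and 0.41 without control replicates 2 and 3, 0.48 and 0.46 without high fat replicates 1 and 3, and 0.11 with array weights. The gene was Ppara, the nuclear receptor of fatty acids, whose synthetic activators are known to lower Acmsd in rat liver. It was at 6.40, 6.82 and 6.35 in controls and 7.92, 7.55 and 7.97 in high fat pups, and all high fat arrays lay above all controls. Those control signals lay near the dim limit of 5.83. The difference was 1.29 (SE 0.19; limma, adjusted p = 0.131), and its part in the Acmsd value was not tested. Hnf4a, a hepatocyte factor, was at -0.15 (SE 0.14) and Nr3c1, the glucocorticoid receptor that induces Tdo2, at 0.55 (SE 0.26; limma, adjusted p = 0.411). Hnf4a was at -0.06 without control replicate 3.

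Kynurenine and kynurenic acid bind the aryl hydrocarbon receptor. Ahr itself was at 0.22 (SE 0.86) and turned to -0.62 without control replicate 3. Of its targets 2 of 5 tested had an unadjusted p under 0.05, against 14.0% of all genes, and nothing is read from so few. The median was -0.31. It was -0.13 without high fat replicate 2, -0.02 without the dim filter and -0.73 with the lowest 60% of probe sets left out. Cyp1a1, the best known target, was at 12.09, 11.92 and 12.25 in controls and 10.68, 7.85 and 10.74 in high fat pups. High fat replicate 2 lay far below the others, and without it the difference of -2.33 (SE 0.74; limma, adjusted p = 0.272) was -1.38. Nqo1, a quinone reductase, was at -1.16 (SE 0.43; limma, adjusted p = 0.308), and its unadjusted p reached 0.0912, being above 0.05 without control replicate 1, high fat replicate 1 or high fat replicate 3. Among 5 tested genes of methyl donors and cofactors, with a median of -0.03, 1 had such a p, Gnmt, against 14.0% of all genes. The median was -0.18 without control replicate 1 and -0.01 without high fat replicate 2, and it turned to 0.01, 0.10 and 0.03 without control replicate 2, control replicate 3 and high fat replicate 3. Gnmt competes with Nnmt for S-adenosylmethionine, and its difference was -0.57 (SE 0.17; limma, adjusted p = 0.256).

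**Figure D4:**
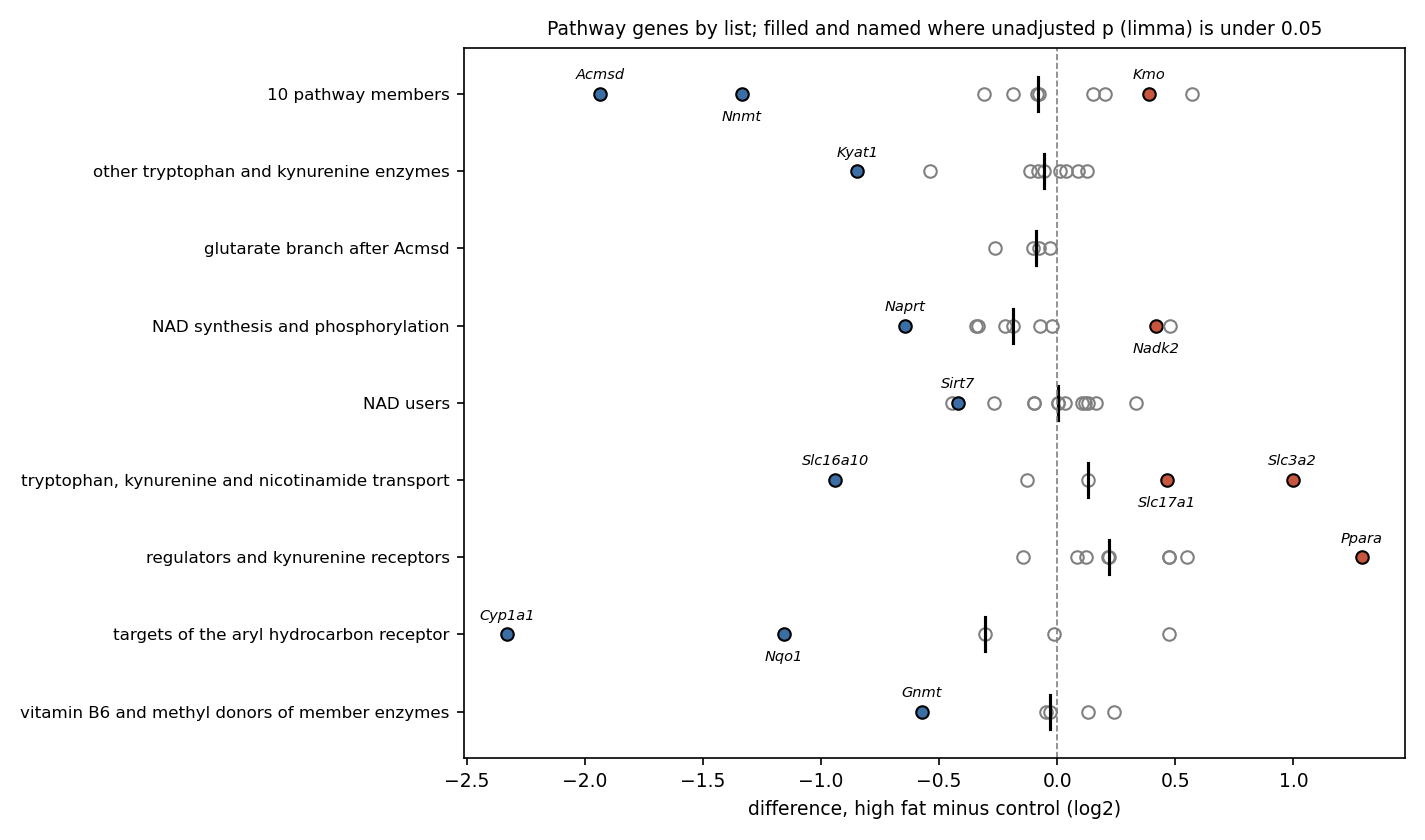
Difference between the diets, in log2 units, the high fat mean less the control mean, for the 10 genes and for each of the 8 lists of surrounding genes that passed the dim limit, 1 circle per gene with the list median as a bar. Filled and named circles had an unadjusted p under 0.05 in limma, and none of them passed the adjusted threshold. Acmsd, at -1.94, is second to Cyp1a1, at -2.33, at the low end.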

How the data were processed

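Livers of 6 pups were measured on Affymetrix rat arrays after 3' labelling, per the labels' protocols. The values deposited by the authors are on a log2 scale, found from the values, since base 2 gives all arrays the same 2% trimmed mean, and the lowest are set to 0. How probes were summarized is not stated in the labels or the table. The 57 control probe sets were left out, and the other 31042 were quantile-normalized, because quartiles differed by up to 0.22, over the limit of 0.1. Of these, 20826 were paired with 1 gene, 436 with several and 9780 had no name here. A current RefSeq table matched 20758 of the probe sets with 1 gene. Probe sets in the lowest 40% by their mean were dropped (the dim limit, 5.83), leaving 10372 genes. No detection calls were used, and the number of arrays limits the precision.

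The test for diets was limma (version 3.58.1, R 4.3.3; eBayes, 2-sided), adjusted after Benjamini and Hochberg across every tested gene, and for branch points an exact permutation test. The script was tested on simulated data. Differences are high fat minus control. Summed signals are sums of 2 to the power of the log2 values. The members and lists were chosen with earlier results of these data known. Named were the 10 genes, every list gene at an unadjusted p under 0.05, otherwise the 2 of smallest p, and anchor genes. Of the anchors, Ido2 and Sirt1 had no probe set of their own here. Promoter windows come from RefSeq (GRCr8), and no other genome was used. One planned motif is not reported here. Alternatives covered normalization, filter, probe sets, variance model, array weights, replicate block, RNA integrity, thresholds and each array left out. Figures used matplotlib 3.10.9 in Python 3.11.15.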

Additional observations from a re-analysis of the deposited data

How the results depend on the processing

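Acmsd kept its direction in every setting run, between -2.08 and -1.72. Its adjusted p in limma ranged from 0.0277 to 0.216 over the settings with all arrays and 1 value per gene. With every probe set fitted on its own and no dim filter it was 0.260. Acmsd passed with the lowest 60% of probe sets left out (difference -1.94, adjusted p 0.0277) and with limma-trend and robust moderation together (-1.94, adjusted p 0.0373). The count of the 10 genes past the adjusted threshold was 1 in these last 2 settings, and 1 at an adjusted p under 0.10. Afmid turned with the RNA integrity covariate (0.43) and ranged from -0.42 to 0.28 with 1 array left out. Haao did so at 0.050 and from -0.17 to 0.051. The cause was not tested. At an unadjusted p under 0.01 there were 0 genes higher and 1 lower. With 1 array left out, 0 to 1 of the 10 genes were higher and 1 to 2 lower at an unadjusted p under 0.05. They were not always the same genes. Without control replicate 1 the higher gene was Nampt (limma, unadjusted 0.00396) and not Kmo. The lower ones were then Acmsd and Tdo2 (0.0366), and not Nnmt. As deposited, with median centring, and with limma-trend and robust moderation, 3 genes were lower, Tdo2 among them. In the fits with 1 array left out, 0 to 3 of all genes passed the adjusted threshold. That last count was 4 with all arrays, 1 without the dim filter and 0 with the RNA integrity covariate. With the replicate block it was 0, and 0 of the 10 genes were higher at an unadjusted p under 0.05, since Kmo had 0.0674. Same-numbered pups did not deviate together (r of -0.14 to -0.13), and none resembled its own number most. With 3 arrays per diet, each centred on the diet mean, these r are tied to one another. They cannot show whether the numbers pair the pups. Nampt was at 1.35 with the mean of its probe sets (limma, adjusted p = 0.486). That mean takes in the dimmer probe set, which lay near the dim limit at a mean of 5.88 and was at 1.64 in control replicate 3. The permutation tests have no weights, block, covariate or variance model, so these were not run for them. By the brightest probe set of each gene, the high fat signals of Acmsd, 6.26 to 6.97, lie nearest to the dim limit of 5.83 among the 10 genes.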

Other observations

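Of the surrounding genes, 10 had a probe set below the dim limit and entered no test. Ido1, the dioxygenase that starts the pathway outside the liver, was at 3.66, 4.35 and 4.69 in controls and 6.27, 4.90 and 4.87 in high fat pups, with high fat replicate 1 the highest. Bst1, an enzyme that cleaves NAD, was at 1.80, 3.99 and 6.11 in controls and at 6.48, 6.45 and 6.31 in high fat pups. It was chosen after its values were seen. Its control arrays spread widely and its high fat arrays lay together, and at such signals no order between arrays is read.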
